A study of Mus musculus with 9 samples.

Results

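RAW264.7 macrophages given VLDL-sized emulsion particles (VLDLsep) were compared with untreated RAW264.7 macrophages (CTRL) by RNAseq. The comparison used 6 of the 9 libraries of the series, 3 for each condition, and the 12637 of 54432 genes that had over 10 counts in 3 or more of the 9. RAW264.7 is an established mouse macrophage-like line, here used over a narrow range of passages and grown in serum-containing medium. Treated cells received the particles at 1 mM for 6 hours and were then washed, and the control cells were left untreated. The particles are artificial triglyceride droplets of about the size of very-low-density lipoprotein, made of sunflower oil with caseinate as the emulsifier, and the control cells received neither. The other 3 libraries of the series came from the same line given larger, chylomicron-sized particles (CHYLsep) at the same dose and time. The study worked in biological and technical triplicate and pooled, for each library, what 1 experiment held of a condition. The p-values measure the spread between these pools, in 1 cell line.

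Macrophages take up triglyceride-rich particles, and the lysosome or lipases at the cell surface release fatty acids and cholesterol from them. Fatty acids bind nuclear receptors of the PPAR family, which raise genes of lipid droplets and fatty acid oxidation. Sterols and unsaturated fatty acids hold back SREBP, the factor that drives cholesterol and fatty acid synthesis. Other circuits read cell damage: NRF2 raises antioxidant genes, ATF4 raises genes of the integrated stress response, HSF1 raises chaperones, and NF-kB and interferon signalling raise inflammatory genes.

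The libraries held 22393893 to 22856792 counts each. All 9 macrophage markers examined were above the filter, and their summed level was 7624 to 7830 cpm (counts per 1000000 counts, after TMM scaling) in the control and 7355 to 7884 cpm in the treated libraries. No marker of B cells, epithelium, erythroid cells or adipocytes passed the filter, and the 6 T cell markers summed to 3.03 to 3.34 cpm in the control and 5.14 to 5.75 cpm in the treated libraries, with *Lck* as the only one above it and *Cd3e*, *Cd3g* and *Cd8a* at 0 in all 6 libraries. The 5 osteoclast markers summed to 10.6 to 13.9 cpm in the control and 15.5 to 17.0 cpm in the treated libraries, most of it *Dcstamp*, with *Ctsk* also above the filter and *Acp5* and *Calcr* at or near 0. For both lists the groups did not overlap, and their part in the results was not tested. Markers of neutrophils, fibroblasts and endothelium, of which 1 of 6, 1 of 5 and 2 of 4 passed the filter, summed to under 2.3 cpm in each library, with overlapping groups. Mitochondrial transcripts took 5.59 to 5.98% of the counts in the control and 6.22 to 6.83% in the treated libraries, and the 10 most abundant genes took 7.43 to 7.58% and 8.85 to 9.27%. In each group replicate 3 lay apart from the other two, in the same direction in all 3 groups, and all pairs of libraries differed beyond sampling noise. Values here are per unit of total RNA, so fewer cells of a kind and less RNA per cell cannot be told apart.

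Treatment changed the level of 4500 of the 12637 genes tested, or 35.6%, at a limma-voom adjusted p (Benjamini-Hochberg) under 0.05. With TMM scaling 2244 genes were higher (17.8%) and 2256 lower (17.9%). The split depended on the scaling: by library size only, which moved the median log2 fold change over all genes from -0.00028 to -0.0935, 1507 were higher and 3312 lower. Most changes were small: 3008 of the 4500 genes, or 66.8%, moved by less than 1.5-fold, and 287 rose (2.27%) and 293 fell (2.32%) by more than 1 on the log2 scale. The 3 treated libraries lay wholly outside the range of the 3 control libraries for 5988 genes, or 47.4%. The count of changed genes fell to 2250 without the libraries numbered 1 and to 2268 without those numbered 2, and was 5386 without those numbered 3. For a gene list with 3 or more calls in a direction, the counts without the libraries of a number and those with scaling by library size only follow in brackets where they moved by over 1.5 times.

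**Figure D1:**
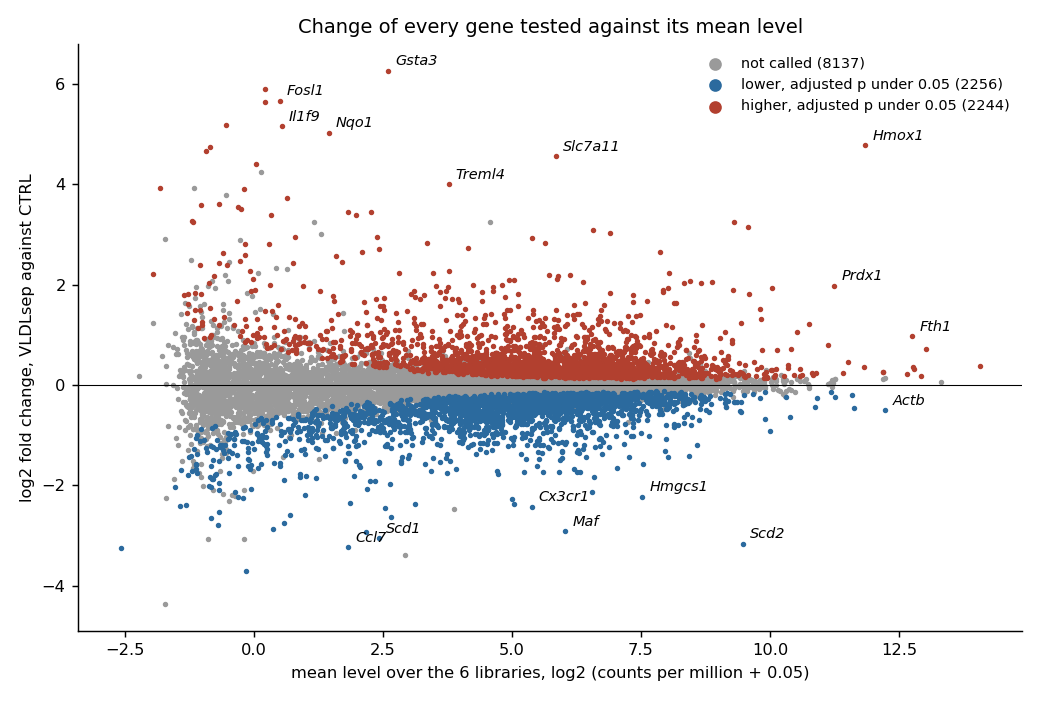
Log2 fold change of VLDLsep against CTRL for each of the 12637 genes tested (y axis) against the log2 of its mean cpm over the 6 libraries (x axis, with 0.05 added). Red and blue points are the 2244 genes called higher and the 2256 called lower at an adjusted p under 0.05, and *Hmox1* combines a large rise with a high level.

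Ranked were genes that changed by over 1 on the log2 scale, whose higher group averaged 50 counts or more and whose libraries did not overlap. Among the 10 largest rises were those of *Gsta3*, *Fosl1*, *Il1f9*, *Nqo1*, *Hmox1*, *Slc7a11*, *Treml4*, *Cdcp1* and *A530064D06Rik*. A number in brackets after a gene symbol is its log2 fold change here and later. *Hmox1* encodes heme oxygenase, which breaks heme down to biliverdin, iron and carbon monoxide (chr8:75093621-75100589, plus strand, GRCm38). It was at 203, 252 and 334 cpm in the control and 7097, 6439.5 and 7806 cpm in the treated libraries (log2 fold change 4.78, SE 0.18, adjusted p = 3.85e-08). No treated library came near the control range, and the gene became one of the most abundant in the cells. *Gsta3*, a glutathione transferase, was at 0.0841, 0.126 and 0.214 cpm in the control and 11.1, 10.8 and 13.8 cpm in the treated libraries (log2 fold change 6.27, SE 0.43, adjusted p = 2.53e-06), but it shares sequence with *Gsta2* and reads can be split between them. The quinone reductase *Nqo1* was at 0.252, 0.0421 and 0.214 cpm in the control and 5.84, 4.72 and 5.05 cpm in the treated libraries (log2 fold change 5.03, SE 0.46, adjusted p = 1.91e-05). Both were at the level of a few counts in the control and well above it in each treated library. No control library had over 5 counts of *Gsta3* or over 6 of *Nqo1*, so both passed the filter only through libraries of particle-treated cells. That their groups do not overlap was a condition for ranking. *Fosl1*, which encodes the AP-1 factor FRA1, had 1, 0 and 2 counts in the control and 63, 46 and 69 in the treated libraries, at least 21.2-fold higher against a floor of 3 counts per control library. *Il1f9*, which encodes interleukin-36 gamma, had 1, 2 and 1 counts in the control and 52, 47 and 83 in the treated libraries, at least 21.7-fold higher against the same floor. At most 3 counts in every library of a group was itself a criterion for naming genes. *Fosl1* and *Il1f9* also passed the filter only through libraries of particle-treated cells. The myeloid receptor *Treml4* was at 1.77, 1.39 and 1.59 cpm in the control and 27.2, 24.0 and 25.8 cpm in the treated libraries (log2 fold change 4.01, SE 0.16, adjusted p = 6.45e-08). The membrane glycoprotein *Cdcp1* and *A530064D06Rik* rose by 3.45 and 3.39 on the log2 scale, and *Cdcp1* was called in 16 of 18 alternative analyses.

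By the same criteria the 10 largest falls were those of *Ccl7*, *Scd2*, *Scd1*, *Elavl4*, *Maf*, *Bahcc1*, *Hcar2*, *Scd4*, *Rtp4* and *Cx3cr1*. Of these, 3 encode stearoyl-CoA desaturases, which put a double bond into saturated fatty acids. *Scd2* was the most abundant of the 3, at 1288, 1353 and 1206 cpm in the control and 134, 159.8 and 136 cpm in the treated libraries (log2 fold change -3.16, SE 0.10, adjusted p = 1.43e-08; chr19:44293674-44306864, plus strand). *Scd1* was at 9.42, 10.3 and 8.53 cpm in the control and 0.685, 1.57 and 1.28 cpm in the treated libraries (log2 fold change -3.05, SE 0.27, adjusted p = 1.45e-05), and *Scd4* had a log2 fold change of -2.59 at a far lower level. The 3 genes are close relatives. The chemokine *Ccl7* was at 4.71, 4.76 and 9.60 cpm in the control and 0.411, 1.03 and 0.546 cpm in the treated libraries (log2 fold change -3.23, SE 0.47, adjusted p = 0.000409). *Maf*, a transcription factor of macrophage differentiation, was at 135, 123 and 86.6 cpm in the control and 17.4, 21.6 and 8.88 cpm in the treated libraries (log2 fold change -2.91, SE 0.37, adjusted p = 0.000168), and its levels varied more between replicates than those of *Scd2*. *Cx3cr1*, the fractalkine receptor, was at 54.9, 53.3 and 103 cpm in the control and 9.90, 10.7 and 18.2 cpm in the treated libraries (log2 fold change -2.42, SE 0.33, adjusted p = 0.000276). The niacin receptor *Hcar2* fell with a log2 fold change of -2.64, the RNA-binding protein gene *Elavl4* with -2.92 and *Bahcc1* with -2.76. That the groups do not overlap was a condition for ranking these genes and is not a further result.

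By amount of RNA, the 5 largest gains were those of *Hmox1*, *Fth1*, *mt-Co1*, *Ftl1* and *Prdx1*. *Fth1* and *Ftl1* encode the ferritin chains that store iron. *Fth1* was at 4403, 4438 and 5154 cpm in the control and 8861, 8866 and 9749.5 cpm in the treated libraries (log2 fold change 0.98, SE 0.07, adjusted p = 3.4e-06), and *Ftl1* rose from 6333 ± 636 to 10362 ± 389 cpm (mean ± SD, n = 3; log2 fold change 0.71). The peroxide reductase *Prdx1* was at 926, 979.9 and 1041 cpm in the control and 3676, 3707 and 4242 cpm in the treated libraries (log2 fold change 1.98, SE 0.07, adjusted p = 3.85e-08). Ferritin genes have processed copies in the genome, to which reads may have been assigned. The 5 largest losses were those of *Actb*, *Scd2*, *Actg1*, *Dab2* and *Tubb5*. *Actb* fell from 5646 ± 398 to 3988 ± 84.2 cpm (log2 fold change -0.50, SE 0.06, adjusted p = 9.3e-05), *Actg1* had a log2 fold change of -0.45, the endocytic adaptor *Dab2* -0.91 and the tubulin *Tubb5* -0.63.

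**Figure D2:**
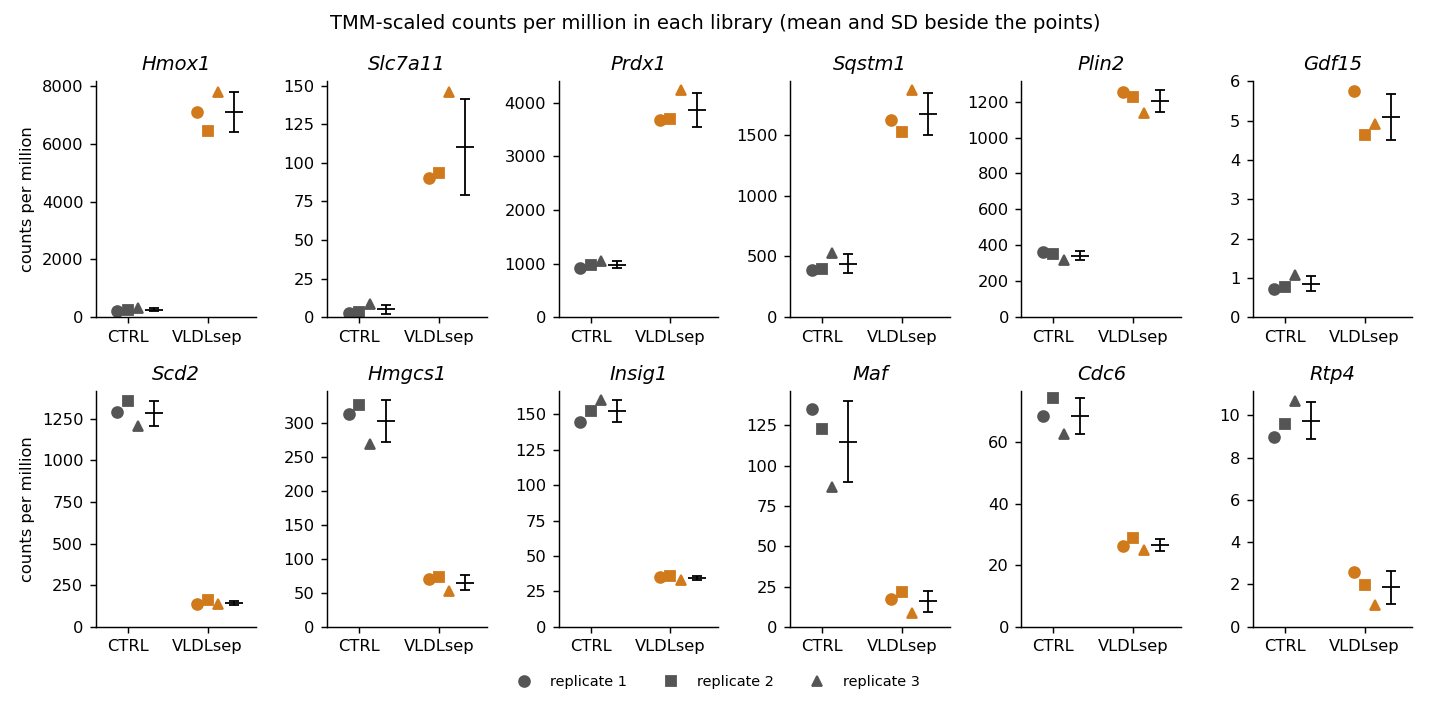
The cpm (y axis) of 12 genes in the 3 CTRL (grey) and 3 VLDLsep (orange) libraries, with circles, squares and triangles for replicates 1, 2 and 3 and the mean and SD beside each group. The 6 genes in the upper row are higher and the 6 in the lower row lower in every treated library than in any control library.

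Across the 45 gene lists examined, the shares of members called ranged from none to all. The lists and members were chosen with earlier results of these data known, so their shares are descriptions and not independent of the data. The background shares in the next sentence also apply to the counts given for each list below. Against a background of 17.8% higher and 17.9% lower among all genes tested, lists with large shares of higher members were cytosolic heat shock (15 of 17), the constitutive proteasome (28 (16 and 15 without replicates 1 and 2) of 33), the aminoacyl-tRNA synthetases (15 (6 and 5 without replicates 1 and 2) of 20), the integrated stress response (13 of 18) and glutathione, thioredoxin and peroxide defence (14 of 20), and their order changed without replicates 1 and 2. Lists with large shares of lower members were cholesterol biosynthesis (19 of 19), S phase (29 of 30) and G2 and mitosis (19 of 26). In the main analysis, cytosolic ribosomal proteins (1 higher, 6 without replicate 3, and 0 lower of 29) had smaller shares called in both directions. So did nuclear oxidative phosphorylation subunits (2 higher and 1 lower, 4 lower by library size, of 36).

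**Figure D3:**
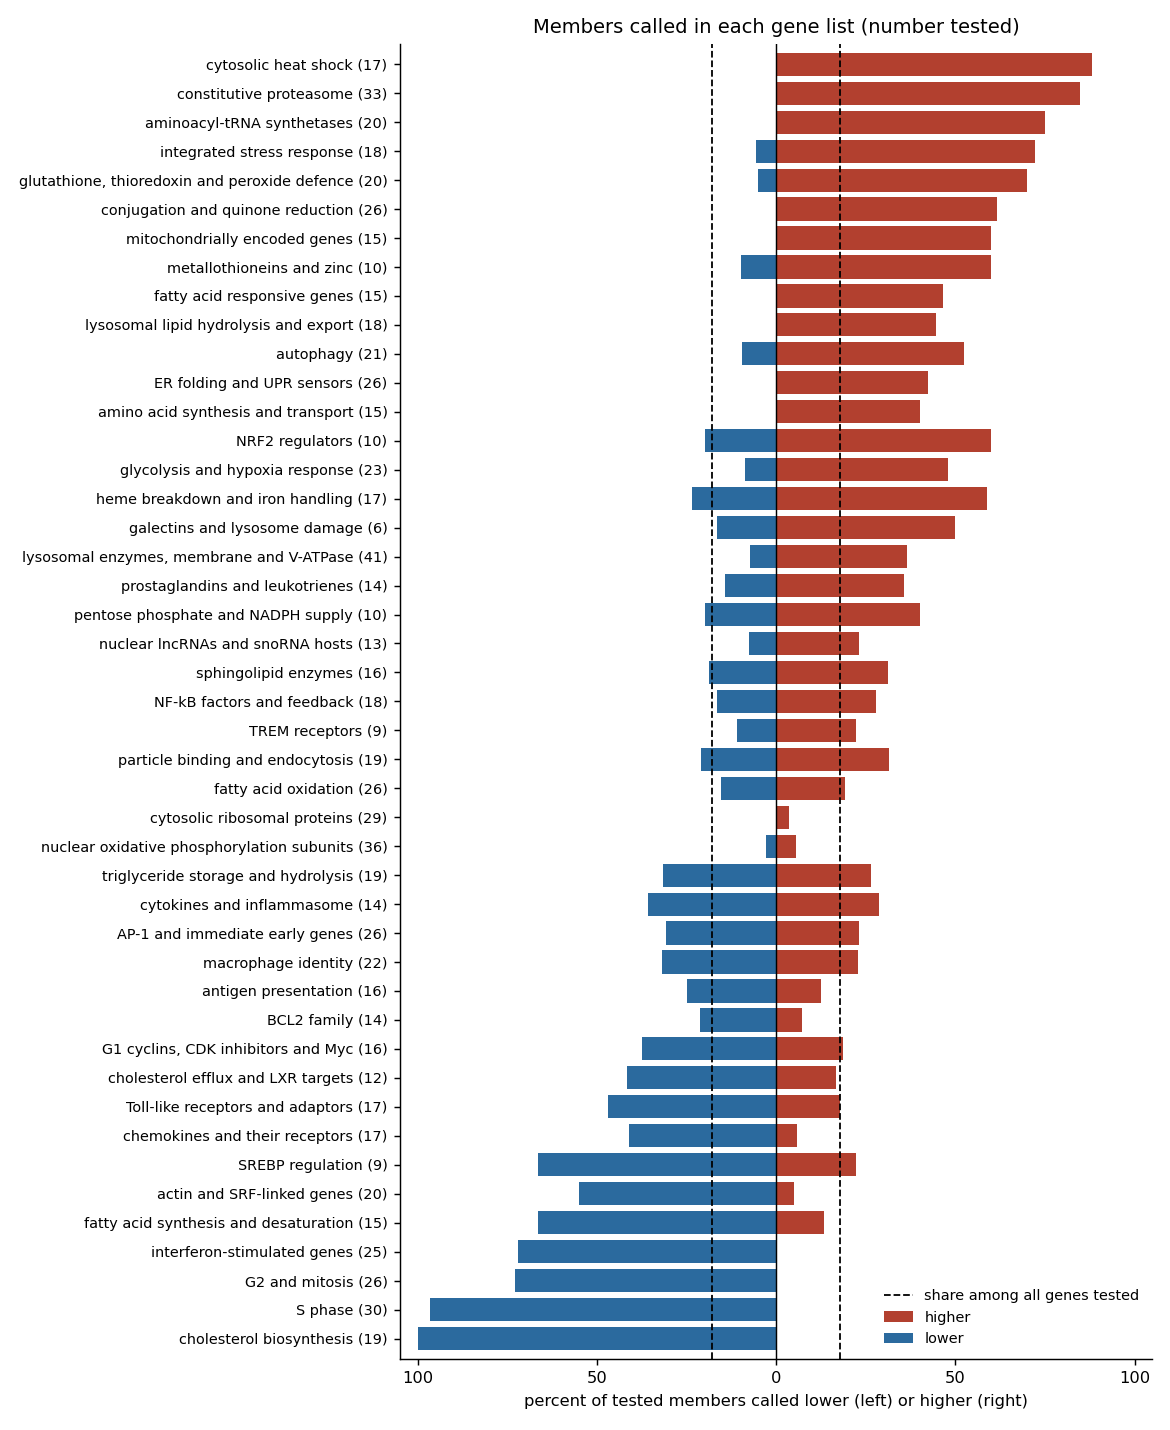
Percent of the tested members of each of the 45 gene lists called lower (blue, left) or higher (red, right), with the number tested in brackets and dashed lines at the shares among all genes tested, 17.9% and 17.8%. Cytosolic heat shock stands at the top and cholesterol biosynthesis, with all 19 tested members lower, at the bottom. The lists were chosen with earlier results of these data known.

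Genes of cholesterol biosynthesis were lower throughout. All 19 tested members fell, 11 of them by more than 1 on the log2 scale, with a median log2 fold change of -1.30. The mevalonate steps had a median of -1.32 and the sterol steps -1.22. *Hmgcs1*, which makes HMG-CoA, was at 314, 327 and 269 cpm in the control and 70.0, 73.2 and 52.5 cpm in the treated libraries (log2 fold change -2.23, SE 0.15, adjusted p = 2.7e-06). The squalene synthase *Fdft1* was at 122, 128 and 119 cpm in the control and 35, 33.6 and 42.4 cpm in the treated libraries (log2 fold change -1.74, SE 0.08, adjusted p = 1.88e-07), and the squalene epoxidase *Sqle* at 408, 413 and 322 cpm in the control and 144, 149 and 126 cpm in the treated libraries (log2 fold change -1.44, SE 0.11, adjusted p = 7.02e-06). The groups were widely separated for all 3 genes. *Acat2* (-1.74), *Mvd* (-1.74) and the demethylase *Cyp51* (-1.66) fell about as far as *Fdft1*. The smallest fall was that of *Ebp* (log2 fold change -0.21), called in 10 of 18 alternative analyses.

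SREBP pathway genes that sense or carry sterols fell with them. *Insig1*, which retains SREBP in the endoplasmic reticulum, was at 144, 153 and 160.1 cpm in the control and 35.3, 35.6 and 32.8 cpm in the treated libraries (log2 fold change -2.14, SE 0.06, adjusted p = 5.58e-09). *Srebf1* and *Srebf2*, which encode the factors themselves, had log2 fold changes of -1.37 and -0.69, and the sterol carrier *Stard4* of -1.31. *Insig2* (0.26) and the protease gene *Mbtps2* (0.32) rose slightly, so that 6 of 9 tested members fell and 2 rose. In fatty acid synthesis and desaturation 10 of 15 tested members fell and 2 rose. *Fasn*, the fatty acid synthase, went from 536 ± 35.2 to 235 ± 14.9 cpm (log2 fold change -1.19, SE 0.07, adjusted p = 6.13e-07). *Acaca* (-0.87) and *Acly* (-0.79) fell as well, whereas the second acetyl-CoA carboxylase *Acacb* rose at a low level (0.74) and the malic enzyme *Me1* rose from 61.2 ± 4.30 to 149 ± 13.3 cpm (log2 fold change 1.29, SE 0.07, adjusted p = 9.26e-07).

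The sterol response motif TCACNCCAC, to which SREBP binds, was searched (N is any base) on both strands, so that capitals may show its reverse complement, in RefSeq promoter windows of GRCm38.p6 that run from 250 bases before to 50 after each start. It was in 5.56% of the 18 windows of cholesterol biosynthesis genes and in 1.1% of the 11882 windows of the genes tested, which matched 9344 genes by symbol, some with more than 1 window. A match is a description and not a binding site. None of the 12 windows of SREBP pathway genes and none of the 14 of fatty acid synthesis and desaturation held it. The only match among cholesterol biosynthesis genes was in *Hmgcs1*, 137 bases before the start, and the stretch is shown because that gene fell most in the list, with the motif in capitals.

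*Hmgcs1*, chr13:119690189-119690247, plus strand: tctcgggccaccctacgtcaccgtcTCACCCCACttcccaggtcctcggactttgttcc

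Genes that respond to fatty acids rose in part. Of 15 tested members 7 rose and none fell, with a median log2 fold change of 0.22. *Plin2*, which coats lipid droplets, was at 363, 349 and 316 cpm in the control and 1255, 1224 and 1136 cpm in the treated libraries (log2 fold change 1.82, SE 0.06, adjusted p = 1.87e-08). *Cpt1a*, which carries long-chain fatty acids toward mitochondrial oxidation, was at 42.9, 39.4 and 42.0 cpm in the control and 126, 131 and 128 cpm in the treated libraries (log2 fold change 1.63, SE 0.06, adjusted p = 2.65e-08). *Hilpda*, an inhibitor of the lipase ATGL, was at 5.38, 6.19 and 6.77 cpm in the control and 18.1, 16.4 and 20.3 cpm in the treated libraries (log2 fold change 1.58, SE 0.14, adjusted p = 1.67e-05). The 3 genes rose in every treated library above every control library. The carnitine carrier *Slc25a20* (0.72) and the receptor *Ppard* (0.98) also rose. *Lpl*, the secreted lipoprotein lipase, was already at 881, 867 and 878 cpm in the control and reached 1044, 1043 and 972 cpm (log2 fold change 0.22, SE 0.05, adjusted p = 0.00488). *Angptl4*, a target in many other cells, was at 10.9, 10.7 and 12.0 cpm in the control and 10.6, 8.89 and 11.5 cpm in the treated libraries (log2 fold change -0.12, SE 0.11, adjusted p = 0.436), where the groups overlapped. *Pdk4* had 0 counts in all 6 libraries, which allows up to 0.126 to 0.137 cpm a library (3 counts, for counting error only), and *Cd36* and *Pparg* were near or below 3 cpm and were not called.

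The oxidation enzymes beyond *Cpt1a* moved little, with 5 (2 and 3 without replicates 1 and 2) of 26 tested members higher and 4 lower, close to the background. *Acadvl* (0.34) rose and the peroxisomal transporter *Abcd2* fell (-1.20). In triglyceride storage and hydrolysis 5 (1 and 3 without replicates 1 and 2, 3 by library size) of 19 members rose and 6 (4 and 3 without replicates 1 and 2) fell. The lipase gene *Pnpla2* rose from 59.4 ± 1.14 to 85.6 ± 3.47 cpm (log2 fold change 0.53), as did the acyltransferase *Gpat3* (0.83). *Lipe*, the hormone-sensitive lipase (-0.52), and *Acsl3*, which activates fatty acids (-1.24), fell, and *Lpin1*, a phosphatidate phosphatase, fell from 20.5 ± 1.36 to 6.09 ± 0.433 cpm (log2 fold change -1.75, SE 0.11, adjusted p = 1.88e-06). Of 12 cholesterol efflux and LXR target genes, 5 fell and 2 rose. *Abca1*, which exports cholesterol to apolipoprotein A-I, was at 54.9, 59.3 and 80.4 cpm in the control and 23.7, 31.9 and 21.3 cpm in the treated libraries (log2 fold change -1.34, SE 0.17, adjusted p = 0.000168), and *Abcg1* at 177, 176 and 229 cpm in the control and 110.0, 113 and 83.9 cpm in the treated libraries (log2 fold change -0.93, SE 0.13, adjusted p = 0.000259). Every treated library was below every control library for both. *Arl4c*, a small GTPase and LXR target, fell (-1.18), *Apoc2* fell at a level near 1 cpm (-1.12), *Soat1*, which esterifies cholesterol, rose by 0.41, and *Apoe* stayed below 2 cpm.

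Endocytic genes went both ways, and more lysosomal genes rose than fell. *Cav1* had 0 counts in all 6 libraries. *Cav2* was at 73.4, 79.7 and 80.1 cpm in the control and 69.1, 79.9 and 84.5 cpm in the treated libraries (log2 fold change -0.0017, SE 0.08, adjusted p = 0.99), with overlapping groups. The clathrin heavy chain *Cltc* rose from 696 ± 17.4 to 957 ± 15.4 cpm (log2 fold change 0.46, SE 0.05, adjusted p = 3.25e-05), the HDL receptor *Scarb1* fell by 0.48 on the log2 scale, and 6 (2 and 3 without replicates 1 and 2, 3 by library size) of the 19 tested binding and endocytosis genes rose and 4 (2 and 1 without replicates 1 and 2, 7 by library size) fell. *Vldlr*, which encodes the VLDL receptor, had 0 counts, and *Ehd2*, which stabilises caveolae, was at 0.547, 0.59 and 0.729 cpm in the control and 0.365, 0.404 and 0.137 cpm in the treated libraries (log2 fold change -1.10, SE 0.38, adjusted p = 0.043), called in 4 of 18 alternative analyses. *Lipa*, the lysosomal acid lipase that hydrolyses triglycerides and cholesteryl esters, was at 915, 928 and 1019 cpm in the control and 1972, 1998 and 2007 cpm in the treated libraries (log2 fold change 1.06, SE 0.05, adjusted p = 2.16e-07). It was the largest rise among the 18 members of lysosomal lipid hydrolysis and export, of which 8 (5 and 5 without replicates 1 and 2) rose and none fell (3 by library size). The hydrolases *Abhd4* (0.83) and *Gla* (0.67) rose too. *Npc1*, which passes cholesterol out of the lysosome, was at 129, 129 and 136 cpm in the control and 178, 178 and 159 cpm in the treated libraries (log2 fold change 0.38, SE 0.06, adjusted p = 0.000385). *Stard3*, a sterol transfer protein of the late endosome, was at 51.2, 49.2 and 45.6 cpm in the control and 47.7, 43.4 and 41.7 cpm in the treated libraries (log2 fold change -0.14, SE 0.07, adjusted p = 0.14), with overlapping groups.

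Among 13 tested V-ATPase subunits, the pump that acidifies the lysosome, 8 rose and none fell, led by *Atp6v1h* (122 ± 2.12 to 213 ± 5.78 cpm; log2 fold change 0.81) and *Atp6v1a* (0.53). In the whole list of lysosomal enzymes, membrane proteins and V-ATPase 15 (7 and 8 without replicates 1 and 2, 9 by library size) of 41 rose and 3 (2, 2 and 5 without replicates 1, 2 and 3, 5 by library size) fell. Of 20 lysosomal enzymes 4 rose and 2 fell, with cathepsin D (*Ctsd*) at 0.23 and cathepsin C (*Ctsc*) at -0.54. *Tfeb*, a master factor of lysosomal genes, was at 33.4, 33.7 and 35.9 cpm in the control and 17.3, 16.6 and 12.8 cpm in the treated libraries (log2 fold change -1.15, SE 0.11, adjusted p = 2.45e-05), whereas its relative *Mitf* rose by 0.59. The motif TCACGTGA, bound by this family of factors, was in 9.3% of 43 windows of the whole list, in 12.5% of 16 of lysosomal lipid hydrolysis and export and in 1.86% of those of all genes tested. The galectins, sugar-binding proteins that mark damaged lysosomes, differed among themselves. *Lgals8* was at 31.8, 35.4 and 39.7 cpm in the control and 58.8, 58.6 and 62.0 cpm in the treated libraries (log2 fold change 0.75, SE 0.08, adjusted p = 3.64e-05), *Lgals3* rose by 0.25 and *Lgals9* fell (-0.29). *Trim16*, a ubiquitin ligase that works with galectins, rose by 1.21, so that 3 of the 6 members rose and 1 fell. *Lgals1* was at 928, 926 and 924 cpm in the control and 1009.7, 951 and 934 cpm in the treated libraries (log2 fold change 0.06, SE 0.05, adjusted p = 0.41).

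Of 21 autophagy genes 11 (7 and 8 without replicates 1 and 2) rose and 2 fell. *Sqstm1*, the receptor p62 that carries ubiquitinated cargo, was at 388, 398 and 529.8 cpm in the control and 1619, 1524 and 1866 cpm in the treated libraries (log2 fold change 1.94, SE 0.12, adjusted p = 1.53e-06). *Gabarapl1*, of the ATG8 family, was at 58.6, 57.0 and 48.2 cpm in the control and 174, 161 and 161 cpm in the treated libraries (log2 fold change 1.6, SE 0.07, adjusted p = 1.82e-07). Both were far above the control range in each treated library. *Atg12* (0.71), the kinase *Ulk1* (0.62) and the receptor *Nbr1* (0.56) rose less, and *Atg9a* fell (-0.45).

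Antioxidant genes rose. In glutathione, thioredoxin and peroxide defence 14 of 20 tested members rose and 1 fell, with a median log2 fold change of 0.93. The antioxidant response motif TGACNNNGC, bound by NRF2 with small MAF proteins and able to overlap the AP-1 motif TGANTCA, was in 22.7% of the 22 promoter windows of this list, in 14.3% of those of all genes tested, in 17.1% of those of genes called higher and in 13.1% of those called lower. In conjugation and quinone reduction it was in 20% of 30 windows and in heme breakdown and iron handling in 4.76% of 21. Of 19 genes that rose and were looked up for a stretch to show, 14 had a window and 4 held the motif before the start. These 4 are shown, with the motif in capitals.

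*Gclm*, chr3:122245398-122245456, plus strand: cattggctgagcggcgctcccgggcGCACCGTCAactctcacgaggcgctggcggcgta

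*Txnrd1*, chr10:82859089-82859147, plus strand: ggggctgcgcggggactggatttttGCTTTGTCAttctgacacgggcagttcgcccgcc

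*Prdx1*, chr4:116685441-116685499, plus strand: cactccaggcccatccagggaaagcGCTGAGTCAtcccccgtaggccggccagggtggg

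*Gsta3*, chr1:21240439-21240497, plus strand: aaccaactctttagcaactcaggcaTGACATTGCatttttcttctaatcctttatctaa

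*Slc7a11*, the cystine importer that feeds glutathione synthesis, was at 2.94, 3.67 and 8.57 cpm in the control and 90.4, 93.5 and 146 cpm in the treated libraries (log2 fold change 4.56, SE 0.44, adjusted p = 2.35e-05). *Gclm*, a subunit of glutamate-cysteine ligase, was at 151, 148 and 165 cpm in the control and 1338, 1388 and 1393 cpm in the treated libraries (log2 fold change 3.15, SE 0.05, adjusted p = 1.74e-10), and the catalytic subunit *Gclc* at 139.6, 139.6 and 143 cpm in the control and 428, 429 and 457 cpm in the treated libraries (log2 fold change 1.64, SE 0.04, adjusted p = 5.58e-09). Control and treated libraries were each tightly grouped for *Gclm* and *Gclc*. The sulfiredoxin *Srxn1* was at 111, 114 and 132 cpm in the control and 1008, 995 and 1431 cpm in the treated libraries (log2 fold change 3.25, SE 0.17, adjusted p = 3.51e-07). Glutathione reductase (*Gsr*, 2.23), catalase (*Cat*, 2.04), *Osgin1* (2.05) and thioredoxin reductase (*Txnrd1*, 1.90) rose by values near that of *Prdx1* (1.98). *Gpx1* was the member that fell (-0.50), and *Gpx4* was at 186, 177 and 187 cpm in the control and 173, 179 and 175 cpm in the treated libraries (log2 fold change -0.06, SE 0.05, adjusted p = 0.381).

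In conjugation and quinone reduction 16 of 26 tested members rose and none fell. Beyond *Gsta3* and *Nqo1*, the carbonyl reductase *Cbr3* was at 4.50, 4.64 and 4.63 cpm in the control and 28.5, 30.1 and 33.8 cpm in the treated libraries (log2 fold change 2.74, SE 0.14, adjusted p = 2.96e-07), the esterase *Esd* rose from 134 ± 13.8 to 563 ± 38.9 cpm (log2 fold change 2.08), and the conjugate pump *Abcc1* from 107 ± 8.91 to 383 ± 27.7 cpm (1.85). In pentose phosphate and NADPH supply 4 of 10 members rose and 2 fell: *Pgd* (1.24), *G6pdx* (1.07) and *Taldo1* (0.83) rose, while *Rpia* fell (-0.70). Of 17 tested genes of heme breakdown and iron handling, 10 rose and 4 (0 and 0 without replicates 1 and 2) fell. The iron exporter *Slc40a1* was at 60.1, 68.2 and 61.4 cpm in the control and 449, 462 and 305 cpm in the treated libraries (log2 fold change 2.66, SE 0.16, adjusted p = 1.5e-06), and the heme transporter *Slc48a1* at 155, 152 and 171 cpm in the control and 672, 615 and 661 cpm in the treated libraries (log2 fold change 2.03, SE 0.06, adjusted p = 5.58e-09). *Blvrb* (1.79) and the endosomal metal transporter *Slc11a1* (1.20) rose, and *Hmox2*, the constitutive heme oxygenase, fell by 0.27 on the log2 scale.

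*Nfe2l2*, which encodes NRF2, was at 256, 248 and 347 cpm in the control and 244, 251 and 267 cpm in the treated libraries (log2 fold change -0.14, SE 0.11, adjusted p = 0.369), and its groups overlapped. *Bach1*, which encodes a repressor of the same sites, was at 50.9, 54.6 and 62.4 cpm in the control and 147, 147 and 177 cpm in the treated libraries (log2 fold change 1.49, SE 0.13, adjusted p = 1.53e-05). The small MAF gene *Maff* (1.47) and *Keap1*, whose product marks NRF2 for degradation (0.28; called in 11 of 18 alternative analyses), also rose, and in all 6 of 10 NRF2 regulators rose and 2 fell. Of the metal-binding metallothioneins, *Mt1* rose from 214 ± 12.9 to 384 ± 37.4 cpm and *Mt2* from 85.7 ± 19.2 to 188 ± 42.4 cpm (log2 fold changes 0.84 and 1.13).

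In the integrated stress response 13 of 18 tested members rose and 1 fell, with a median log2 fold change of 0.99. The factor *Atf4* was at 213, 208 and 357 cpm in the control and 498, 447 and 562 cpm in the treated libraries (log2 fold change 0.99, SE 0.21, adjusted p = 0.00434) and *Ddit3*, which encodes CHOP, at 4.25, 4.76 and 7.12 cpm in the control and 18.9, 17.3 and 20.6 cpm in the treated libraries (log2 fold change 1.85, SE 0.19, adjusted p = 4.13e-05). The third control library lay nearest to the treated range for *Atf4*. *Atf3* was at 104, 108 and 216 cpm in the control and 399.8, 373 and 488 cpm in the treated libraries (log2 fold change 1.64, SE 0.25, adjusted p = 0.00055), and *Ppp1r15a*, which restores translation, at 9.04, 8.39 and 13.2 cpm in the control and 36.7, 30.6 and 51.2 cpm in the treated libraries (log2 fold change 1.95, SE 0.28, adjusted p = 0.000405). *Trib3* (1.76), *Chac1* (1.88) and the stress cytokine *Gdf15* (2.58) rose as well, and the kinase *Eif2ak2* fell (-0.43).

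The motif TGATGNAA, bound by ATF4 with C/EBP partners, was in 41.7% of 12 windows of aminoacyl-tRNA synthetase genes, in 20% of 20 of integrated stress response genes and in 2.36% of those of all genes tested. Of 10 genes looked up, 9 had a window and 4 held it before the start. Stretches of *Slc7a11* and *Atf3* are shown because both rose and hold it, with 1 match in capitals. The *Slc7a11* stretch holds 2.

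*Slc7a11*, chr3:50443647-50443704, minus strand: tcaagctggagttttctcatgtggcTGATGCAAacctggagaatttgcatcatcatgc

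*Atf3*, chr1:191183411-191183468, minus strand: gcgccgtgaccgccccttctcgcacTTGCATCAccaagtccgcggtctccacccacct

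Of 20 tested aminoacyl-tRNA synthetases, which charge tRNAs, 15 (6 and 5 without replicates 1 and 2) rose and none fell, with a median of 0.29. *Nars* rose by 0.57, *Vars* had a value of -0.20 with overlapping groups, and *Eprs* was at 329.7, 347 and 404 cpm in the control and 624, 647 and 791 cpm in the treated libraries (log2 fold change 0.93, SE 0.12, adjusted p = 0.000146). Of 15 genes of amino acid synthesis and transport 6 (3 and 4 without replicates 1 and 2) rose and none fell, among them the transporter *Slc1a4* (1.65) and asparagine synthetase *Asns* (0.79), while *Slc7a5*, a leucine transporter, was at 139, 136 and 233 cpm in the control and 207, 196 and 282 cpm in the treated libraries (log2 fold change 0.46, SE 0.24, adjusted p = 0.161). *Hspa5*, which encodes BiP, was at 1028, 1060.3 and 986 cpm in the control and 1159, 1199 and 1096 cpm in the treated libraries (log2 fold change 0.17, SE 0.06, adjusted p = 0.0496), called in 6 of 18 alternative analyses. Of the ER folding genes and sensors 11 (2 and 2 without replicates 1 and 2, 3 by library size) of the 26 members rose, and the largest rises were those of *Dnajb9* (0.75) and *Ero1l* (0.62).

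In the cytosol, 15 of 17 tested heat shock genes rose and none fell. *Hspa1b* was at 1.01, 1.26 and 1.16 cpm in the control and 8.26, 6.92 and 6.62 cpm in the treated libraries (log2 fold change 2.65, SE 0.22, adjusted p = 8.46e-06), and its near-identical neighbour *Hspa1a* had at most 1.17 estimated counts, so the reads of the pair cannot be told apart. The heat shock motif, GAA, TTC and GAA in a row with 2 bases between each, was in 26.3% of 19 windows of this list and in 0.463% of those of all genes tested. Of 6 genes looked up for a stretch to show, 4 had a window and 0 held the motif before the start. *Hsph1* was at 106, 103 and 86.7 cpm in the control and 252, 253 and 271 cpm in the treated libraries (log2 fold change 1.39, SE 0.08, adjusted p = 7.49e-07) and *Hspa8* at 1702, 1669.8 and 1506 cpm in the control and 2904, 2689 and 2897 cpm in the treated libraries (log2 fold change 0.80, SE 0.06, adjusted p = 7.95e-06). Of 33 constitutive proteasome genes 28 (16 and 15 without replicates 1 and 2) rose and none fell, by a median of 0.29 on the log2 scale. The core subunit *Psma5* rose by 0.78, and the lid subunit *Psmd11* rose most, from 170.4 ± 18.9 to 379.9 ± 24.6 cpm (log2 fold change 1.16, SE 0.09, adjusted p = 8.45e-06).

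**Figure D4:**
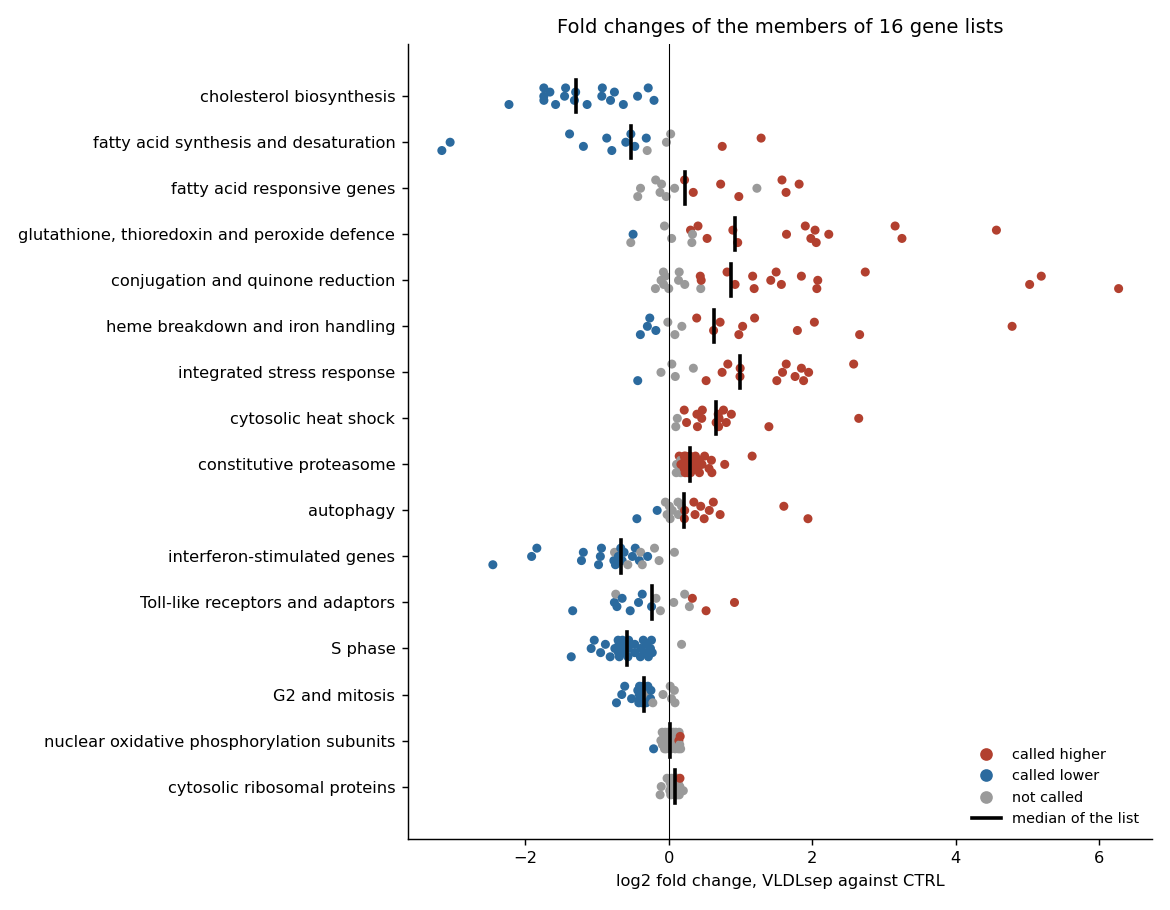
Log2 fold changes (x axis) of the tested members of 16 gene lists, one point a gene, coloured red when called higher, blue when called lower and grey when not called, with a black bar at the list's median. Antioxidant lists reach far to the right, while proteasome members lie between 0.103 and 1.16 and S phase members between -1.36 and 0.177.

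Inflammatory genes went both ways. Of 17 tested chemokine and receptor genes 7 fell and 1 rose. *Ccl2* was at 129, 129 and 194 cpm in the control and 40.5, 41.8 and 41.5 cpm in the treated libraries (log2 fold change -1.84, SE 0.15, adjusted p = 7.72e-06), and *Cxcr4*, a chemokine receptor, was the gene that rose, at 81.7, 84.0 and 116 cpm in the control and 297, 279.6 and 315 cpm in the treated libraries (log2 fold change 1.68, SE 0.13, adjusted p = 7.84e-06). *Cxcl2* was at 1.14, 0.716 and 4.24 cpm in the control and 3.29, 3.10 and 7.01 cpm in the treated libraries (log2 fold change 1.45, SE 0.56, adjusted p = 0.068), and its groups overlapped. *Cxcl10* (-1.26) and *Cxcl14* (-1.58) fell at levels of a few cpm or less. *Il6* had at most 4 counts and *Il1b* at most 3 in any of the 6 libraries. In cytokines and inflammasome 4 of 14 rose and 5 (2 and 3 without replicates 1 and 2) fell. *Tnf* had a log2 fold change of -0.35, the inflammasome adaptor *Pycard* -0.71, and *Casp1* 0.75. Of 14 prostaglandin and leukotriene genes 5 (3 and 3 without replicates 1 and 2) rose and 2 fell. The prostaglandin synthase *Ptgs2* rose from 13.2 ± 3.08 to 30.3 ± 2.47 cpm (log2 fold change 1.22, SE 0.14, adjusted p = 9.82e-05), and the 5-lipoxygenase *Alox5* fell by 0.90 on the log2 scale.

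Of 25 tested interferon-stimulated genes 18 (11 and 13 without replicates 1 and 2) fell and none rose, with a median of -0.67. *Rtp4* was at 8.96, 9.57 and 10.7 cpm in the control and 2.60, 1.98 and 1.05 cpm in the treated libraries (log2 fold change -2.45, SE 0.31, adjusted p = 0.000165) and *Cmpk2* at 7.23, 7.29 and 9.35 cpm in the control and 1.87, 1.71 and 2.82 cpm in the treated libraries (log2 fold change -1.91, SE 0.21, adjusted p = 5.42e-05). *Xaf1* (-1.22), *Usp18* (-1.19), *Irf9* (-0.74) and *Isg15* (-0.77) fell less. Of 17 Toll-like receptor genes and adaptors 8 (5 and 7 without replicates 1 and 2) fell and 3 (2 and 1 without replicates 1 and 2) rose, with *Tlr8* (-1.34) and *Tlr7* (-0.76) falling and *Ticam1* rising (0.91). The interferon motif, a pair of TTTC with 2 bases between them, was in 50% of 20 windows of interferon-stimulated genes and in 3.18% of those of all genes tested. The stretch of *Ifit1*, which fell (-1.84), is shown with 1 of its 2 matches in capitals.

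*Ifit1*, chr19:34640760-34640819, plus strand: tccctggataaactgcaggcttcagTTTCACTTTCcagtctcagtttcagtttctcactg

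Most of the genes of S phase and of G2 and mitosis fell. Of 30 tested S phase genes 29 fell, with a median of -0.58. *Cdc6*, which loads the replicative helicase, was at 68.5, 74.4 and 62.8 cpm in the control and 26.4, 28.8 and 24.9 cpm in the treated libraries (log2 fold change -1.36, SE 0.12, adjusted p = 1.15e-05), and *Uhrf1* at 334, 334 and 369.6 cpm in the control and 160.0, 166 and 164 cpm in the treated libraries (log2 fold change -1.08, SE 0.05, adjusted p = 1.94e-07). The ribonucleotide reductase *Rrm2* (-0.95) and the cyclin *Ccne1* (-1.04) fell as well. *Pcna* was the exception, at 556, 562 and 594 cpm in the control and 609, 624 and 707 cpm in the treated libraries (log2 fold change 0.18, SE 0.08, adjusted p = 0.113). Of 26 genes of G2 and mitosis 19 fell, among them *Plk1* (-0.73) and *Aurkb* (-0.66), while *Mki67* was at 874, 940.1 and 859 cpm in the control and 886, 950.0 and 907 cpm in the treated libraries (log2 fold change 0.04, SE 0.07, adjusted p = 0.711). Of 16 genes of G1 cyclins, CDK inhibitors and Myc, 3 rose and 6 fell. The G1 cyclin *Ccnd1* was at 524, 529 and 447 cpm in the control and 201, 220.4 and 147 cpm in the treated libraries (log2 fold change -1.42, SE 0.17, adjusted p = 0.000114), and *Ccnd3* had a log2 fold change of -0.97. *Mdm2*, a p53 target and inhibitor, rose from 91.0 ± 15.7 to 192 ± 25 cpm (log2 fold change 1.09, SE 0.15, adjusted p = 0.000329). The E2F motifs TTTCCCGC and TTTGGCGC were in 33.3% of 30 windows of S phase genes and in 3% of those of all genes tested, and the motif TTTGAA was in 77.3% of 22 windows of G2 and mitosis genes and in 12.3% of those of all genes tested. Stretches of *Cdc6* and *Mcm7* are shown because both fell and hold an E2F motif, in capitals.

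*Cdc6*, chr11:98907988-98908045, plus strand: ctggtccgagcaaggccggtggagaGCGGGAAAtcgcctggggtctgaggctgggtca

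*Mcm7*, chr5:138172016-138172073, minus strand: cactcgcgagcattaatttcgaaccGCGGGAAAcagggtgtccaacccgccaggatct

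Of 20 tested actin and SRF-linked genes 11 (7 and 6 without replicates 1 and 2) fell and 1 rose, among them vinculin (*Vcl*, -1.19), zyxin (*Zyx*, -0.75) and *Srf* itself (-0.72), beside *Actb* and *Actg1*. Of 15 mitochondrially encoded genes 9 (5 and 2 without replicates 1 and 2, 5 by library size) rose and none fell, each by less than 0.4 on the log2 scale, and they move with the mitochondrial share of the libraries given above, whose part in this was not tested. The glucose transporter *Slc2a1* was at 69.2, 72.8 and 93.0 cpm in the control and 239.8, 222 and 275 cpm in the treated libraries (log2 fold change 1.65, SE 0.13, adjusted p = 5.54e-06), and 11 (8 and 7 without replicates 1 and 2) of 23 glycolysis and hypoxia genes rose, among them *Bnip3* (0.98) and the pyruvate kinase *Pkm* (0.36), while the oxygen sensor *Egln1* fell (-0.34). Among 22 macrophage identity genes 5 (2 and 2 without replicates 1 and 2, 3 by library size) rose and 7 (4 and 5 without replicates 1 and 2, 11 by library size) fell: the factor *Cebpa* was at 8.33, 7.12 and 7.46 cpm in the control and 32.1, 28.0 and 30.8 cpm in the treated libraries (log2 fold change 1.99, SE 0.13, adjusted p = 2.09e-06), *Irf8* had a log2 fold change of -0.63, the Fc receptor *Fcgr1* -0.83, and the receptor *Csf1r* was at 1369.5, 1393 and 1290.0 cpm in the control and 1288, 1324 and 1222 cpm in the treated libraries (log2 fold change -0.08, SE 0.05, adjusted p = 0.242).

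Between VLDL-sized and CHYL-sized emulsion particles 0 genes (0%) were called by limma-voom with Benjamini-Hochberg adjustment, and 813 had an unadjusted p under 0.05. That count depended on the analysis. edgeR's quasi-likelihood test called 0 and DESeq2 24, and limma-voom called 232 without the libraries numbered 3 and 1 each without VLDLsep replicate 3 and without CHYLsep replicate 2. The 95% interval of the difference lay within 1 on the log2 scale for 11552 of 12637 genes, or 91.4%. That bound is wider than most changes against control, where 580 of the 4500 genes called moved by over 1. *Hmox1* was at 7114 ± 683 cpm after VLDL-sized and 5572 ± 1265 cpm after CHYL-sized emulsion particles (log2 difference 0.37, 95% interval -0.03 to 0.77). *Scd2* was at 143 ± 14.1 cpm after VLDL-sized and 167 ± 23.5 cpm after CHYL-sized emulsion particles (log2 difference -0.21, 95% interval -0.44 to 0.02). *Plin2* was at 1205 ± 61.9 cpm after VLDL-sized and 1035 ± 25.8 cpm after CHYL-sized emulsion particles (log2 difference 0.22, 95% interval 0.08 to 0.35). These intervals are not adjusted for the number of genes, and none of the 3 was called. Both comparisons with control share the control libraries, so their counts of changed genes were not set against each other.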

How the data were processed

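RNA from RAW264.7 macrophages was sequenced as paired-end reads in 9 libraries, 3 per group, and the authors quantified transcripts with Salmon 0.14.1 against a GRCm38.p6 annotation. The deposited table holds estimated counts per gene, apparently without length scaling, since 58.3% of values above 10 were whole within 1e-06. No normalized values were used.

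Symbols and coordinates came from a GRCm38 annotation, which matched 54346 of 54432 gene IDs. A gene was tested if 3 or more of the 9 libraries had over 10 counts. Values are counts per 1000000 after TMM scaling (edgeR 4.0.16). The test was limma-voom (limma 3.58.1, R 4.3.3) over all 9 libraries without a block, with Benjamini-Hochberg adjustment over all genes, and it was tested on simulated data. Alternatives were edgeR's quasi-likelihood test and DESeq2 1.42.0 on rounded counts, other scalings and filters, single libraries or replicate numbers left out, and the replicate block, whose pairing is not settled. Named genes were the 10 largest rises and falls whose higher group averaged 50 counts or more, the 5 largest gains and losses in cpm, genes with at most 3 counts in one group, leading and defining members of the gene lists, and genes the study measured, some of which are not reported here. The gene lists and members were chosen with earlier results of these data known. Motifs were searched in RefSeq promoter windows for 10 factors or factor families, and the stretches shown were chosen because they hold a match. Depth was 22393893 to 22856792 counts a library.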

Additional observations from a re-analysis of the deposited data

How the results depend on the processing

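The count of genes changed against control was 2250 (1115 higher and 1135 lower) without the libraries numbered 1, 2268 (1124 and 1144) without those numbered 2 and 5386 (2727 and 2659) without those numbered 3. It was 2887 (1456 and 1431) at an adjusted p under 0.01 and 580 (287 and 293) with a log2 fold change over 1. Leaving out 1 library at a time gave 3488 to 4316. Other settings lay within 1.5 times of 4500, from 3972 without a filter on low counts to 4819 (1507 and 3312) with scaling by library size only, with 4513 by edgeR's quasi-likelihood test and 4397 by DESeq2, and 1882 genes were called under all 18 alternatives. Scaling by library size alone moved the median log2 fold change over all genes to -0.0935. Against CHYL-sized emulsion particles the count of 0 became 24 by DESeq2, 232 without the libraries numbered 3, and 1 each without VLDLsep replicate 3 and without CHYLsep replicate 2. Of 211 genes followed across settings, 195 were called, 165 of them under every alternative, and 0 reversed while called. Signs turned for 6 uncalled genes whose changes are near 0. With library size only, *Lgals1* was -0.04, *Trem2* -0.02 and *Mki67* -0.06. *Cav2* was 0.0018 by edgeR and 0.0031 by DESeq2, 0.02 without CTRL replicate 2 or CTRL replicate 3, 0.08 without VLDLsep replicate 1 and 0.04 without replicate 1 of every group. With 1 library left out, *Nfe2l2* ranged from -0.23 to 0.01 (without CTRL replicate 3), and *Apoe* from -0.08 (without VLDLsep replicate 3), by -0.05 (without CTRL replicate 2), to 0.37. The cause of these moves was not tested. At the depth of these libraries, genes at a few counts are the least certain.

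When the replicate number entered as a block, 6058 genes were called against control and 147 against CHYL-sized emulsion particles. Whether the numbers pair the libraries is not settled. Those numbered 3 deviated from their group means in the same direction in all 3 groups. On the first principal component of the deviations, with 28.9% of their variance, they scored -0.446 (CTRL), -0.497 (VLDLsep) and -0.466 (CHYLsep). The other libraries scored 0.188 to 0.266. What the libraries numbered 3 have in common was not tested. Deviations of CTRL and VLDLsep libraries of the same number correlated at 0.0894, 0.099 and 0.217 on the voom scale, so that 2 of 3 pairs were under the 0.1 set for every pair, while 4 other scales or filters, computed after the counts under the block were known, put every pair over it. The study pooled each condition within an experiment, so libraries of an experiment belong together, but the labels do not say which numbers share an experiment. All 6 CTRL and VLDLsep libraries correlated best with their own number, a hint from the data. Of VLDLsep and CHYLsep libraries, 2 of 6 did, and their pairs ranged from 0.000209 to 0.277 on the voom scale, with every pair over 0.1 in 3 of the 5 versions. The analysis without the block was kept.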

Other observations

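Of 26 tested AP-1 and immediate early genes 6 were higher (23.1%) and 8 (2 and 4 without replicates 1 and 2) lower (30.8%). Among all genes tested the shares were 17.8% and 17.9%. Beside *Fosl1*, the phosphatase genes *Dusp1* and *Dusp5*, which switch off MAP kinases, rose: *Dusp1* was at 21.1, 19.8 and 23.6 cpm in the control and 96.2, 84.1 and 111 cpm in the treated libraries (log2 fold change 2.17, SE 0.20, adjusted p = 1.9e-05) and *Dusp5* had a log2 fold change of 1.72. *Klf2*, a factor of quiescent macrophages, was at 18.4, 15.6 and 9.82 cpm in the control and 3.19, 3.32 and 1.91 cpm in the treated libraries (log2 fold change -2.36, SE 0.37, adjusted p = 0.000592), and *Fos* (-0.94) and *Spry1*, an inhibitor of growth factor signalling (-1.87), fell as well. The treated and control libraries did not overlap for these genes, as for 47.4% of all genes tested. For *Fosl1* this was a condition of the ranking. The AP-1 motif TGANTCA was in none of 24 promoter windows of the list and in 5.06% of those of all genes tested. Of 18 NF-kB factors and feedback genes 5 (2, 2 and 12 without replicates 1, 2 and 3) rose and 3 (5 by library size) fell. Among cytokines, *Osm*, which encodes oncostatin M, rose from 4.80 ± 0.619 to 12.3 ± 2.30 cpm (log2 fold change 1.34, SE 0.20, adjusted p = 0.000389), and the inflammasome sensor *Nlrp3* fell by 0.48 on the log2 scale. *Vegfa* stayed below 1 cpm (log2 fold change 1.31, called in 9 of 18 alternative analyses). The prostaglandin receptor *Ptger2* was at 0.294, 0.169 and 0.129 cpm in the control and 1.12, 1.80 and 1.5 cpm in the treated libraries (log2 fold change 2.82, SE 0.37, adjusted p = 0.000198). As no control library held over 10 counts of it, *Ptger2* passed the filter only through libraries of particle-treated cells.

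Among all genes tested 17.8% rose and 17.9% fell. Of 9 TREM receptor genes and adaptors 2 rose (22.2%) and 1 fell (11.1%), not far from those shares. The shares were 12.5% and 25% for antigen presentation and 7.14% and 21.4% for the BCL2 family. *Treml4* is described above, *Trem1*, which amplifies inflammatory signals, was at 30.0, 28.1 and 31.5 cpm in the control and 13.8, 15.9 and 10.8 cpm in the treated libraries (log2 fold change -1.16, SE 0.14, adjusted p = 0.000146), and *Trem2* was at 359.9, 369 and 356 cpm in the control and 387, 369 and 385 cpm in the treated libraries (log2 fold change 0.07, SE 0.05, adjusted p = 0.311), with overlapping groups. The C-type lectin *Clec4n* rose from 8.74 ± 0.467 to 25.4 ± 5.73 cpm (log2 fold change 1.51, SE 0.27, adjusted p = 0.00157) and the scavenger receptor *Marco* by 0.83. In antigen presentation 2 of 16 tested members rose and 4 (1 and 2 without replicates 1 and 2) fell, among them the immunoproteasome subunit *Psmb9* (-0.54), while *H2-D1* rose (0.36) but has near-identical relatives. Of 14 BCL2 family genes 1 rose, the death gene *Bcl2l11* (0.39), and 3 (7 by library size) fell, among them the survival genes *Bcl2l1*, at 126, 125 and 125 cpm in the control and 72.0, 66.4 and 58.1 cpm in the treated libraries (log2 fold change -0.94, SE 0.11, adjusted p = 7.55e-05), and *Bcl2* (-0.76). Among the CDK inhibitors *Cdkn2c* (-1.03) was lower and *Cdkn1a* (0.37), which encodes p21, higher. Of 16 sphingolipid enzymes 5 (3 and 2 without replicates 1 and 2, 3 by library size) rose and 3 (1 and 1 without replicates 1 and 2) fell, with the ceramide synthase *Cers2* (0.34) higher and the sphingomyelinase *Smpd3* (-0.93) lower. In metallothioneins and zinc 6 of 10 rose and 1 fell, with the zinc exporter *Slc30a1* at 29.9, 31.3 and 63.2 cpm in the control and 77.0, 78.9 and 112 cpm in the treated libraries (log2 fold change 1.18, SE 0.30, adjusted p = 0.0107). The metal response motif TGCGCNC was in 55.6% of 9 windows of that list and in 26.2% of those of all genes tested. Of 13 nuclear lncRNAs and snoRNA hosts 3 rose and 1 fell, and *Malat1* and *Neat1* rose by 0.97 and 0.66.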
